A study of Mus musculus with 15 samples.

Results

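The genes described here encode 10 plasma membrane amino acid transporters, taken by symbol from the deposited expression tables of 2 mouse tumour cell lines. They are Slc3a2, Slc7a1, Slc7a3, Slc7a5, Slc7a6, Slc7a11, Slc1a4, Slc1a5, Slc38a1 and Slc38a2, and all 10 have an entry in both tables, which list 54343 (MC38) and 55303 (B16-F10) genes. Messenger RNA was sequenced in 15 libraries. MC38, a colon carcinoma line whose tissue label reads melanoma, gave 4 wild-type libraries (WT) and 3 libraries of cells stably transduced with a retroviral vector carrying Ssbp4 cDNA and EGFP (OE). B16-F10, a melanoma line, gave 4 libraries of cells electroporated with Cas9 and a control guide RNA against an intergenic site (WT) and 4 libraries of cells electroporated with Cas9 and a mixture of guides against Ssbp4 (KO). All cells grew in serum-containing medium with added L-glutamine. The labels name no MC38 group with an empty vector and state neither a cloning step for the edited cells nor separate cultures for the replicates. The p-values below therefore rest on library-to-library spread that may be technical.

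Cells import amino acids through exchangers and sodium-driven carriers that work as a network. Slc3a2 (CD98, 4F2hc) is a single-pass glycoprotein that carries several transporter light chains to the surface, among them Slc7a5 (LAT1), which exchanges large neutral amino acids such as leucine, Slc7a6 (y+LAT2), which exchanges cationic for neutral amino acids, and Slc7a11 (xCT), which imports cystine in exchange for glutamate. Slc7a1 (CAT1) and Slc7a3 (CAT3) carry arginine and lysine without a heavy chain. Slc1a5 (ASCT2) and Slc1a4 (ASCT1) exchange small neutral amino acids, glutamine being a main substrate of Slc1a5, and Slc38a1 (SNAT1) and Slc38a2 (SNAT2) bring in glutamine and alanine with sodium. In amino acid shortage the kinase GCN2 leads to translation of the transcription factor ATF4, which binds composite C/EBP-ATF elements in several transporter genes.

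Both promoters below are shown because their genes carry the core of that element near the start site. RefSeq promoter windows on GRCm38.p6, 250 bases before to 50 after a start site, were matched by symbol for 6 of the 10 genes. The core TGATGNAA was searched on both strands and is in capitals. Slc7a11 lies on the minus strand (chr3:50443564-50443863) and holds 2 copies in opposite orientation, beginning 66 and 47 bases before the start site and not overlapping. Slc1a4 also lies on the minus strand (chr11:20332664-20332963) and holds 1 copy, beginning 4 bases before the start site.
Slc7a11: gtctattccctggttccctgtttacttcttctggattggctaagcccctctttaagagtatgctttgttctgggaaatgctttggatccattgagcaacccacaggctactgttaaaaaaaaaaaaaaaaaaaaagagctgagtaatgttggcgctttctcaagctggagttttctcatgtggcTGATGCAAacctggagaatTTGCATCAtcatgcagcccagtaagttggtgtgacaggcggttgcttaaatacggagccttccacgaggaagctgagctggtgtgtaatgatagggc
Slc1a4: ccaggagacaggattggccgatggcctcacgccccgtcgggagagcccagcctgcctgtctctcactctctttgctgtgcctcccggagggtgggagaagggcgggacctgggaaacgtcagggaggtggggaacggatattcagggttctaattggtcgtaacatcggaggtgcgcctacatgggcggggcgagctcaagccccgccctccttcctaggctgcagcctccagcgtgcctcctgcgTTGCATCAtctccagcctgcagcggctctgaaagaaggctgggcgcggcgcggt

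The same core is present in 3.97% of 32851 promoter windows of this length, and was not found in the windows of Slc3a2, Slc7a1, Slc7a6 and Slc38a2. Slc7a3, Slc7a5, Slc1a5 and Slc38a1 had no window and were not searched. Sequence outside the windows was not searched for any gene, so an absent match does not mean an absent element. The antioxidant response element core TGACNNNGC, present in 12.4% of windows, was found in those of Slc7a6 and Slc38a2 and in 1 of the 2 windows of Slc7a1. The E-box CACGTG, present in 7.15% of windows, was found in 0 of the 6 genes. These are letter matches and not measured binding sites.

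Values are FPKM, in which the authors divided mapped fragments by gene length and by the mapped total of the library, so levels of different genes can be compared per length. Depth, estimated from the spacing of low values, was 32.4 to 48.7 M (mega) fragments per library. Ssbp4 stood at 16.3 ± 2.05 FPKM in MC38 wild type and 534 ± 63.5 in overexpressing cells (SD, n = 4 and 3), and at 34.5 ± 2.37 in B16-F10 wild type and 22.1 ± 2.29 in knockout cells (SD, n = 4 and 4). In MC38 every overexpressing library was above every wild-type library. The libraries labelled KO kept 19.0 to 24.4 FPKM, 64.1% of wild type on average, against 32.4 to 37.4 FPKM in wild type, so the mRNA was lower and not lost, and neither editing nor protein was measured in the files used here. The 8 melanocyte markers summed to 11020 to 14210 FPKM in B16-F10 and to 0.934 to 2.11 in MC38. Of 9 intestinal epithelial markers 2 reached a mean of 1 FPKM in MC38 wild type, Krt8 and Krt18, while the intestinal factors Cdx1 and Cdx2 were listed at 0 in all MC38 libraries, so the MC38 libraries do not show a colon epithelial profile by these markers.

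The first comparison set MC38 cells with added Ssbp4 against their wild-type counterparts. All 9 transporters that reached a mean of 1 FPKM fell, and for each of the 9 every overexpressing library lay below every wild-type library. The largest fall was that of the glutamine exchanger Slc1a5, to 57.6% of wild type, followed by Slc7a5 and Slc38a1. Of all 10748 genes tested 23.6% were called lower and 23.9% higher at an adjusted p under 0.05 (limma, Benjamini-Hochberg), and 25.1% had overexpressing libraries all below wild type. The median log2 fold change of the 9 was -0.29, against -0.0088 over all tested genes. The transporters were chosen with earlier results of these data known, so their contrast with all genes is a description and not an independent test. In bulk libraries such as these, fewer cells of a kind and less RNA per cell cannot be told apart. Summed over the 10 genes, FPKM came to 703 to 733 in wild-type libraries and 546 to 572 in overexpressing libraries.

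**Figure D1:**
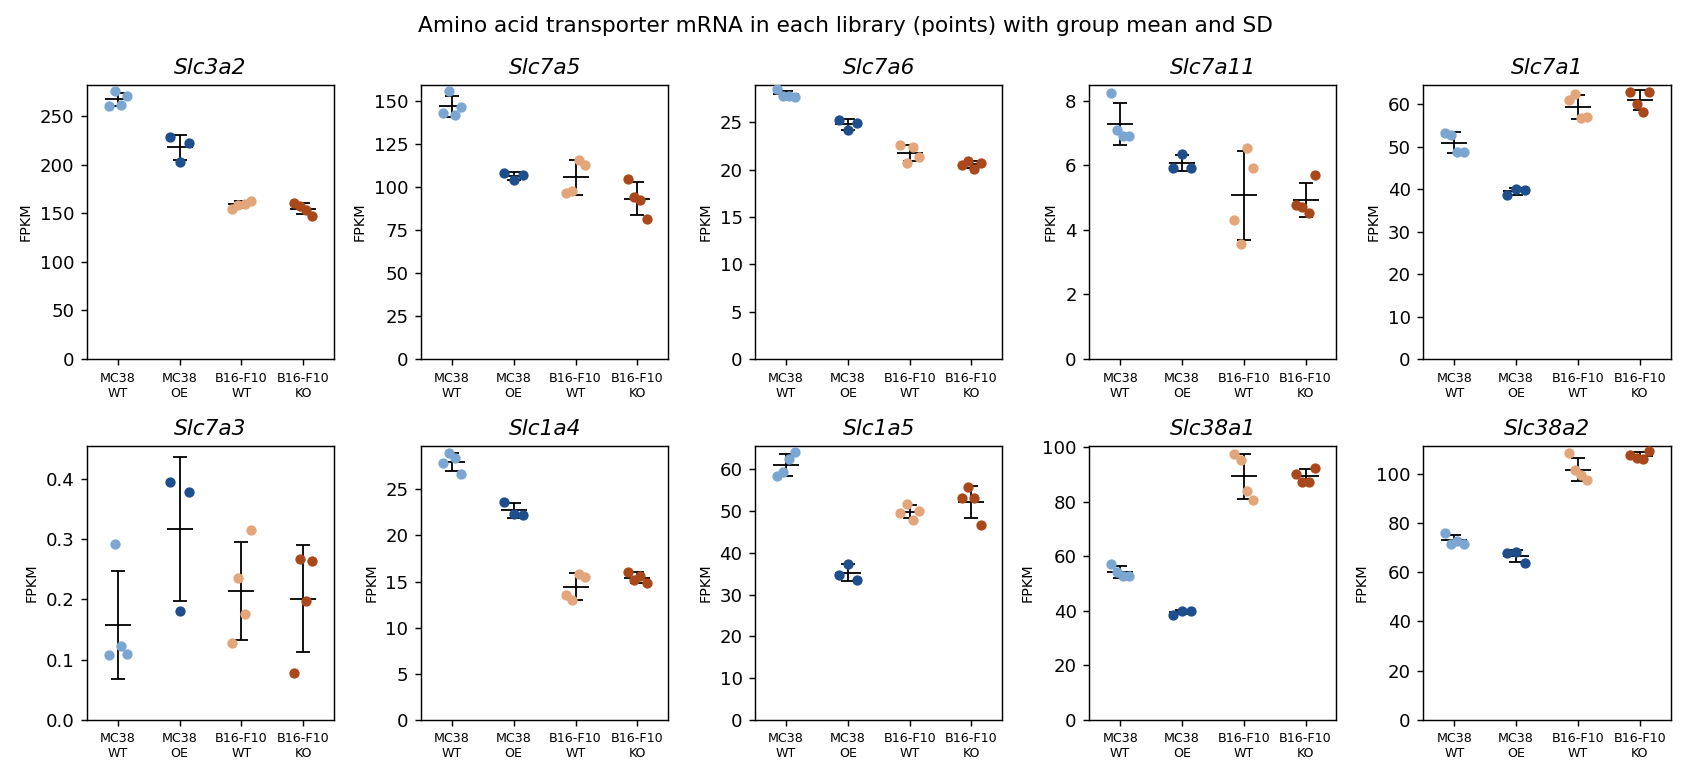
FPKM of the 10 transporter genes (vertical axes, linear and starting at 0) in MC38 wild type (WT), MC38 overexpressing Ssbp4 (OE), B16-F10 wild type and B16-F10 knockout (KO); each point is a library, and horizontal marks and bars are the mean and SD. In MC38 the OE points of all genes but Slc7a3 lie below the WT points, with Slc1a5 at 33.5 to 37.5 against 58.5 to 64.2 FPKM, while in B16-F10 the groups overlap for each gene.

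Among the heteromeric transporters, Slc3a2 was at 261, 276, 262 and 270.5 FPKM in wild-type libraries 1 to 4 and at 228, 203 and 222 FPKM in overexpressing libraries 1 to 3. The groups were apart, with overexpressing library 2 lowest, and the log2 fold change was -0.29 (SE 0.04, adjusted p = 3.40e-04). Its main partner Slc7a5 was at 143, 156, 142 and 146 FPKM in wild type and 108, 104 and 107 FPKM in overexpressing cells. The overexpressing libraries lay close together and the change was -0.46 on the log2 scale (SE 0.04, adjusted p = 7.32e-06), a fall to 72.5% of wild type.

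The second light chain, Slc7a6, went from 28.5, 27.8, 27.8 and 27.7 FPKM to 25.3, 24.2 and 25.0 FPKM. Its fall was among the smallest of the 9, with a log2 change of -0.17 (SE 0.04, adjusted p = 0.00353), and 23.0% of all tested genes had a change as low or lower. The cystine importer Slc7a11 was the least abundant tested gene, at 8.25, 7.09, 6.90 and 6.90 FPKM in wild type and 5.92, 6.36 and 5.92 FPKM in overexpressing cells. Wild-type library 1 was above the other wild-type libraries, and the log2 fold change was -0.23 (SE 0.07, adjusted p = 0.0198). This call was lost when overexpressing library 1 (adjusted p = 0.0636) or 3 (adjusted p = 0.0656) was left out, and when genes of any level were tested (adjusted p = 0.0575).

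Relative to Slc3a2 in the same library, a ratio in which library scaling cancels, the light chains did not move alike. Slc7a5 mRNA was 0.541 to 0.564 of Slc3a2 in wild-type libraries and 0.474 to 0.511 in overexpressing libraries, so the groups were apart and Slc7a5 was lower by more than its heavy chain. Slc7a6 was 0.101 to 0.109 of Slc3a2 in wild type and 0.111 to 0.119 in overexpressing cells, apart in the other direction. Slc7a11 was 0.0255 to 0.0316 of Slc3a2 in wild type and 0.0259 to 0.0313 in overexpressing cells, and these ranges overlap. The other known partners added little in MC38: Slc7a7 averaged 0.129 and 0.212 FPKM, and Slc7a8 and Slc7a10 were listed at 0. These ratios were not tested.

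**Figure D2:**
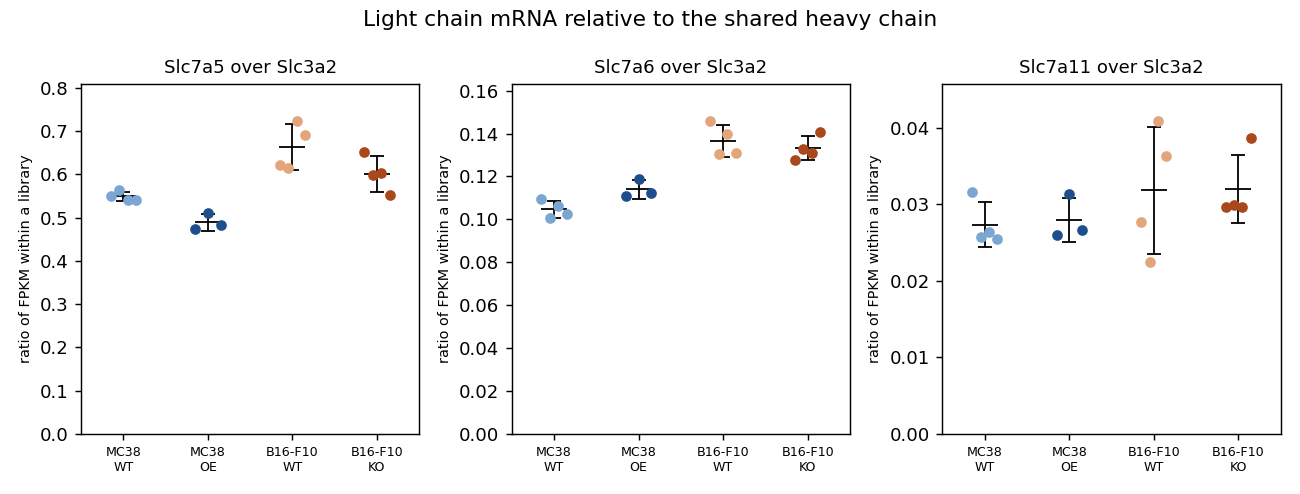
Ratio of Slc7a5, Slc7a6 and Slc7a11 FPKM to Slc3a2 FPKM within each library (vertical axes, starting at 0), by group; points are libraries, marks and bars the mean and SD. In MC38, Slc7a5 is lower relative to Slc3a2 in the OE libraries (0.474 to 0.511) than in the WT libraries (0.541 to 0.564), Slc7a6 is higher, and the Slc7a11 ranges overlap.

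For the cationic carriers, Slc7a1 was at 53.3, 52.7, 48.7 and 48.8 FPKM in wild type and 38.5, 40.1 and 39.7 FPKM in overexpressing MC38 libraries. Slc7a1 fell by 0.36 on the log2 scale (SE 0.04, limma, adjusted p = 8.20e-05). The mouse protein is also the receptor of ecotropic murine leukaemia virus, and the vector used here was packaged with the VSV-G envelope. Any part of the vector in the fall of Slc7a1 mRNA was not tested. Slc7a3 was the only gene of the 10 below the filter, at 0.108, 0.292, 0.122 and 0.110 FPKM in wild type and 0.395, 0.180 and 0.378 FPKM in overexpressing cells. These groups overlap, and the gene was not tested in either line.

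The neutral exchanger Slc1a5 was at 58.5, 59.4, 62.5 and 64.2 FPKM in wild type and 34.7, 37.5 and 33.5 FPKM in overexpressing cells. The gap between the groups was larger than the range within either, and the log2 fold change was -0.78 (SE 0.05, adjusted p = 7.59e-07). Only 0.865% of tested genes had a change as low or lower. Slc1a4, of the same family, was at 27.9, 28.9, 28.4 and 26.6 FPKM in wild type and 23.7, 22.3 and 22.2 FPKM in overexpressing cells. It fell less, by 0.29 on the log2 scale (SE 0.04, adjusted p = 3.53e-04).

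The sodium-coupled carriers also differed in size of change. Slc38a1 was at 57.3, 54.1, 52.6 and 53.0 FPKM in wild type and 38.7, 40.1 and 40.1 FPKM in overexpressing cells. The groups were apart by more than their own ranges, and the fall came to 0.44 on the log2 scale (SE 0.04, adjusted p = 9.61e-06). Slc38a2, the member of the pair that is induced by amino acid shortage in many cells, was at 75.9, 71.6, 72.6 and 71.6 FPKM in wild type and 67.9, 68.2 and 63.8 FPKM in overexpressing cells. Its change was the smallest of the 9, with a log2 change of -0.13 (SE 0.04, adjusted p = 0.0169), and 28.3% of tested genes had one as low or lower. With overexpressing library 3, the lowest, left out, the change was -0.099 and missed the threshold (adjusted p = 0.0799), as it did with all libraries brought to the same total (-0.10, adjusted p = 0.0703).

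In the order of wild-type MC38 levels Slc1a5 held position 4, above Slc38a1 and Slc7a1, and in overexpressing cells it held position 6, below both, with ranges that do not overlap. The other 9 kept their order among themselves, in which Slc38a1 and Slc7a1 overlapped in both groups and Slc7a6 and Slc1a4 overlapped in wild type.

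Markers of other cell types moved with the MC38 groups. The 5 fibroblast markers summed to 82.1 to 87.6 FPKM in wild type, with 2 at a mean of 1 FPKM or more, and to 384 to 392 FPKM in overexpressing cells, with 3, mainly through Dcn and Pdgfra, and none was listed at 0. The 4 endothelial markers summed to 4.31 to 5.71 and 2.89 to 3.63 FPKM, nearly all of it Egfl7, and none was at 0 in all libraries of a group. The 6 leukocyte markers summed to 2.06 to 2.87 and 3.04 to 4.16 FPKM, nearly all of it Cd68, with the T cell marker Cd3e at 0 in both groups. The 9 intestinal epithelial markers summed to 6.67 to 8.86 and 8.96 to 10.8 FPKM, Krt18 falling from 3.23 to 0.0607 and Krt8 rising from 3.22 to 9.45, and Epcam was at 0 in overexpressing cells only. The part of these genes in the transporter result was not tested.

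The second comparison set B16-F10 cells that received Ssbp4 guides against those that received the control guide. None of the 9 tested transporters passed, 0 higher and 0 lower, in limma at an adjusted p under 0.05, and 0 of 9 had an unadjusted p under 0.05. Of all 10902 genes 1.33% were called higher and 0.899% lower, so 59.7% of calls were higher, a share of 73.1% with libraries rescaled to a common total and of 39.8% with median-of-ratios factors. Libraries of the 2 groups overlapped for each of the 9, while they were fully apart for 13.9% of tested genes. The median log2 fold change of the 9 was 0.0049, against 0.024 over all tested genes.

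Slc7a5 had the largest difference of the 9 in size, at 96.3, 97.7, 116 and 113 FPKM in wild type and 105, 94.0, 92.3 and 81.2 FPKM in knockout libraries. Wild-type libraries 3 and 4 were above the rest and knockout library 4 was lowest, and the log2 fold change was -0.18 with a 95% interval of -0.38 to 0.014 (adjusted p = 0.269). Slc3a2 was nearly level, at 155, 159, 160.1 and 163 FPKM in wild type and 160.5, 157, 153 and 147 FPKM in knockout cells. Its interval ran from -0.14 to 0.055 on the log2 scale.

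Slc7a6 was at 22.6, 20.7, 22.4 and 21.3 FPKM in wild type and 20.5, 20.9, 20.1 and 20.7 FPKM in knockout cells. Only wild-type library 2 lay within the knockout range, and the log2 fold change of -0.077 had an interval of -0.18 to 0.023. Slc7a11 was at 4.29, 3.57, 6.54 and 5.91 FPKM in wild type and 4.76, 4.70, 4.54 and 5.69 FPKM in knockout cells. Wild-type libraries spread more widely than knockout libraries, and its interval, -0.35 to 0.32, was the widest of the 9. Relative to Slc3a2, Slc7a5 was 0.614 to 0.723 in wild type and 0.552 to 0.652 in knockout cells, and the ranges of the other light chains overlapped as well.

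The glutamine exchanger Slc1a5, which changed most in MC38, was at 49.6, 51.8, 48.0 and 50.2 FPKM in wild-type B16-F10 and 53.2, 55.8, 53.1 and 46.6 FPKM in knockout cells. Knockout library 4 was below the wild-type libraries and the other 3 above them, and the interval of the log2 fold change was -0.071 to 0.19. Slc1a4 was at 13.5, 12.9, 15.9 and 15.5 FPKM in wild type and 16.1, 15.2, 15.7 and 14.8 FPKM in knockout cells (interval -0.063 to 0.25). Here wild-type libraries 1 and 2 were below all knockout libraries and libraries 3 and 4 within their range.

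Slc7a1 was at 60.9, 62.4, 56.7 and 57.03 FPKM in wild type and 62.8, 59.9, 58.1 and 62.8 FPKM in knockout cells, with an interval of -0.072 to 0.15. For Slc38a1 the values were 97.5, 95.4, 83.9 and 80.6 FPKM in wild type and 90.4, 87.2, 87.3 and 92.6 FPKM in knockout cells, with an interval of -0.14 to 0.15. All knockout libraries lay between the 2 pairs of wild-type libraries. Slc38a2 was at 108, 101, 99.5 and 97.3 FPKM in wild type and 108, 106, 106 and 109 FPKM in knockout cells, with wild-type library 1 alone inside the knockout range and an interval of -0.021 to 0.18. Slc7a3 stayed between 0.0778 and 0.315 FPKM in all 8 libraries.

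The control libraries fell into pairs. On the first principal component of all tested genes wild-type libraries 1 and 2 lay at -9.42 and -10.3 and libraries 3 and 4 at 17.8, with knockout libraries between -7.81 and -1.91. Slc3a2, Slc7a5, Slc7a11 and Slc1a4 were higher in wild-type libraries 3 and 4 than in 1 and 2, and Slc7a1, Slc38a1 and Slc38a2 were lower. For Slc7a6 and Slc1a5 the pairs overlapped. The share of all tested genes that separated these pairs was not counted, so the split is not shown to be particular to the transporters. With any 1 library left out 0 of the tested transporters passed in limma. The count of all called genes was 243 with all libraries, 93, 119, 44 and 41 without wild-type library 1, 2, 3 and 4, and 27, 23, 26 and 414 without knockout library 1, 2, 3 and 4. Melanocyte markers summed to 11020 to 14130 FPKM in wild type and 13690 to 14210 in knockout cells, all 8 being at a mean of 1 FPKM or more. Fibroblast markers summed to 4.87 to 6.38 and 6.42 to 9.29 FPKM with 2 of 5 at 1 FPKM or more, endothelial markers to 11.3 to 16.02 and 15.7 to 17.5 with 1 of 4, and leukocyte markers to 1.27 to 2.87 and 2.08 to 3.66 with 1 of 6. The 9 intestinal epithelial markers summed to at most 0.534 FPKM. Cdh5, Ptprc, Cd3e, Itgam and Adgre1 were listed at 0 in both groups, and the part of these markers was not tested.

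**Figure D3:**
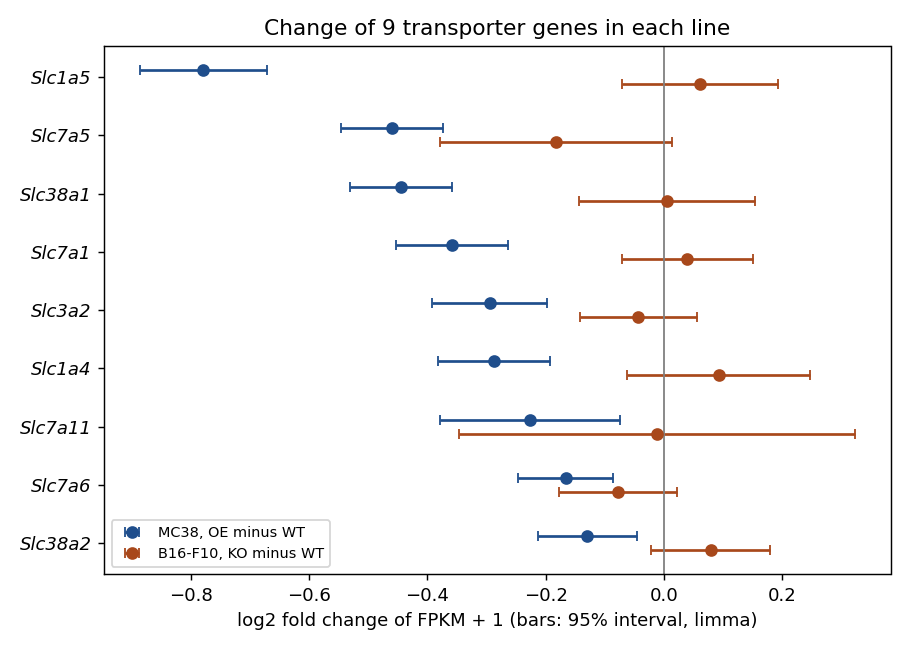
Log2 fold change of FPKM + 1 (horizontal axis) of the 9 tested transporter genes, modified minus wild type, with 95% limma intervals, for MC38 (OE) and B16-F10 (KO). All MC38 intervals lie below 0, from -0.78 for Slc1a5 to -0.13 for Slc38a2, and all B16-F10 intervals include 0.

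The 2 comparisons use different controls, different lines and opposite manipulations, so their difference was not tested. Ssbp4 mRNA was at 64.1% of wild type in the B16-F10 knockout libraries and at 3275% in the MC38 overexpressing libraries.

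Genes that act with the transporters were read from lists, which were also chosen with earlier results of these data known. The lists were described by counts and medians and not tested as lists. In MC38 the other plasma membrane transporters had 5 of 24 members tested, of which 2 fell and 1 rose, where 23.6% of all tested genes were called lower and 23.9% higher. Slc6a15, a carrier of branched-chain amino acids and proline, went from 19.7 ± 0.961 to 12.9 ± 0.529 FPKM, and the glycine carrier Slc6a9 from 21.97 ± 1.84 to 17.9 ± 0.582 FPKM (SD, n = 4 and 3). Slc16a10, which carries aromatic amino acids, rose from 6.04 ± 0.421 to 8.07 ± 0.723 FPKM.

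Amino acid response genes had 12 of 19 members lower and 2 higher in MC38, against 23.6% lower and 23.9% higher over all tested genes, with a median log2 fold change of -0.30. Trib3, a pseudokinase induced by ATF4, fell from 138 ± 6.16 to 66.5 ± 2.30 FPKM, and Ppp1r15a, which directs dephosphorylation of eIF2alpha, from 75.1 ± 6.88 to 36.3 ± 1.25 FPKM. Ddit4, an inhibitor of mTORC1 signalling, rose from 18.2 ± 1.32 to 27.6 ± 0.654 FPKM and the kinase Eif2ak3 from 4.33 ± 0.146 to 6.97 ± 0.353 FPKM (SD, n = 4 and 3). Several of these falls were larger than that of any transporter.

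Amino acid synthesis enzymes had 11 of 21 tested members lower and 2 higher, with a median of -0.17, beside the same 23.6% and 23.9% over all tested genes. Cth, which makes cysteine from cystathionine, fell from 24.1 ± 0.604 to 14.3 ± 0.258 FPKM and the aspartate aminotransferase Got1 from 100.3 ± 3.64 to 66.3 ± 0.918 FPKM. Glutamine synthetase Glul rose from 10.7 ± 0.245 to 14.6 ± 0.663 FPKM and the argininosuccinate lyase Asl from 12.5 ± 0.485 to 16.6 ± 1.27 FPKM (SD, n = 4 and 3).

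Slc7a11 supplies cystine for glutathione. Of the NRF2 and glutathione genes 6 of 16 were lower and 7 higher in MC38, with a median of -0.069, and over all tested genes calls were likewise about even, at 23.6% lower and 23.9% higher. Gclc, the catalytic subunit of the first glutathione enzyme, fell from 21.0 ± 0.607 to 14.04 ± 0.468 FPKM and the thioredoxin reductase Txnrd1 from 130 ± 2.73 to 89.6 ± 0.696 FPKM. The quinone reductase Nqo1 rose from 3.77 ± 0.385 to 7.27 ± 0.337 FPKM. Bach1, a repressor of antioxidant genes, rose by 0.20 on the log2 scale (adjusted p = 0.0136), a call that was lost when overexpressing library 2 was left out (adjusted p = 0.0553).

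Of the lysosomal amino acid transporters and mTORC1 amino acid sensing genes 15 of 34 tested members were higher, 3 were lower and 16 were not called, against 23.9% higher and 23.6% lower over all tested genes. Their median was 0.14, and 8 of the 34 had a change below 0. Fnip2, a folliculin partner, rose from 11.3 ± 0.725 to 16.4 ± 0.562 FPKM and Sesn3, a sestrin, from 0.923 ± 0.178 to 1.84 ± 0.160 FPKM. The wild-type mean of Sesn3 was under the filter of 1 FPKM. It entered the test only through the overexpressing libraries, where it was high, so its call carries little weight. The lysosomal glutamine and asparagine carrier Slc38a7 fell from 10.4 ± 0.611 to 6.55 ± 0.253 FPKM, and the Rag GTPase Rragb from 4.65 ± 0.279 to 3.61 ± 0.206 FPKM (SD, n = 4 and 3).

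**Figure D4:**
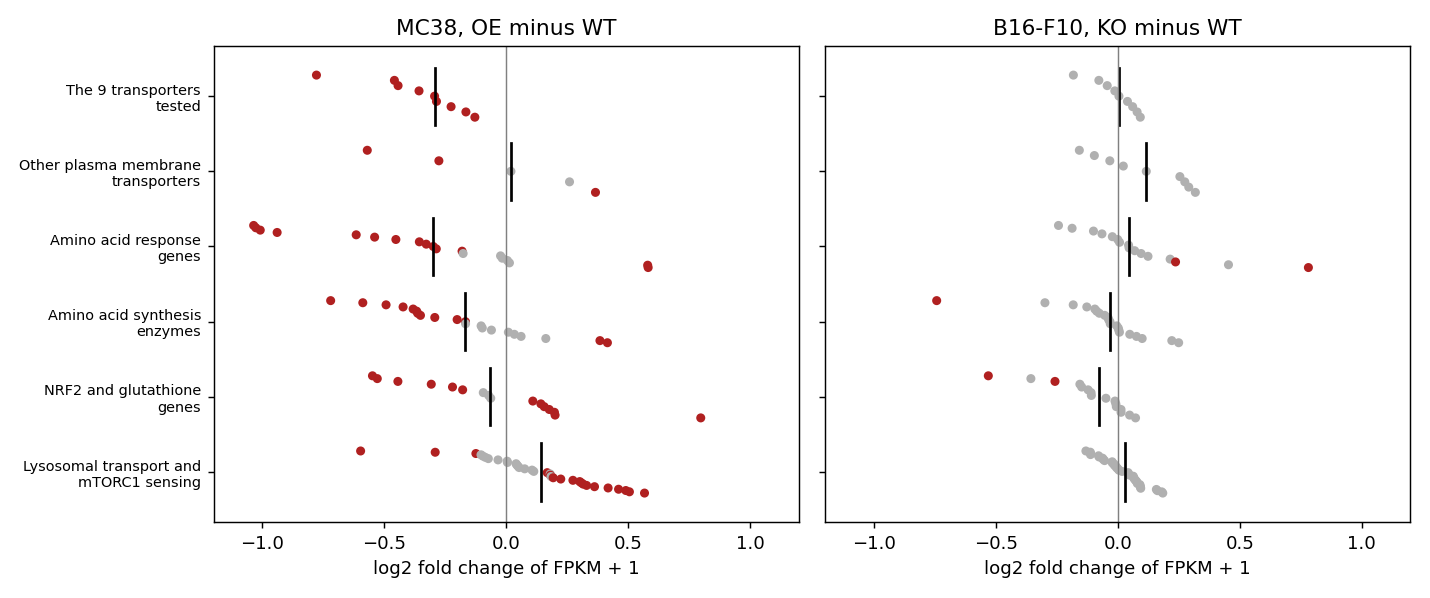
Log2 fold change of FPKM + 1 (horizontal axes) of each tested gene in 6 lists, in MC38 (left) and B16-F10 (right); red points passed an adjusted p of 0.05 in limma, grey points did not, and black lines are list medians. In MC38 all 9 transporters are red and below 0, with a median of -0.29, and the sensing list has its median above 0 at 0.14, whereas in B16-F10 few points are red.

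In B16-F10 the same lists held few calls, and over all tested genes 1.33% were called higher and 0.899% lower. The synthesis enzymes had 1 of 21 tested genes called and the NRF2 and glutathione genes 2 of 16. The share of all genes at an unadjusted p under 0.05 was not computed. Other plasma membrane transporters had 0 of 9 called in limma (4 at an unadjusted p under 0.05) and the sensing list 0 of 36 (3 at an unadjusted p under 0.05). The most abundant of the former were the taurine carrier Slc6a6, at 95.6 ± 3.30 and 104 ± 3.81 FPKM, and Slc6a17, at 20.1 ± 2.44 and 17.9 ± 1.00 FPKM, and of the latter Sec13 and Lamtor1. Of 16 amino acid response genes 2 rose, Nupr1 from 15.5 ± 1.43 to 27.4 ± 2.74 FPKM and Cebpg from 10.9 ± 0.387 to 13.01 ± 0.627 FPKM (SD, n = 4 and 4). In the other lists the argininosuccinate synthase Ass1 fell from 54.4 ± 2.57 to 32.1 ± 2.03 FPKM, haem oxygenase Hmox1 from 67.6 ± 5.18 to 46.5 ± 2.96 FPKM and glutathione reductase Gsr from 26.0 ± 1.77 to 21.6 ± 0.516 FPKM. Nupr1, Ass1 and Hmox1 passed with any 1 library left out. Cebpg (adjusted p = 0.0495) was lost whichever of the 8 libraries was left out, at an adjusted p of 0.0634 to 0.154. Gsr (adjusted p = 0.0478) passed without wild-type library 2 and without knockout library 4, and not without wild-type library 1, 3 or 4 (0.0685, 0.0928 and 0.114) or knockout library 1, 2 or 3 (0.130, 0.163 and 0.151).

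The genes nearest to Slc3a2 and Slc7a11 in pattern were found by the root-mean-square difference of log2(FPKM + 1), centred on the wild-type mean of each line, over 15 libraries and 9738 other genes. Nearest to Slc3a2 were Smyd5 (0.0386), the cell cycle kinase Cdk4 (0.0393), Chchd4 (0.0404), Ppm1a (0.0432) and Rnf187 (0.0451), against a median of 0.183 over all genes. Each of these 5 fell in MC38, by 0.28 to 0.30 on the log2 scale, and had changes in B16-F10 of -0.069 to -0.00083. These 5 were picked for the smallest distance, so their like changes follow from that choice and every other gene is farther. Of the light chains, Slc7a6 was at 0.0801 and rank 285, Slc7a5 at 0.125 and rank 1899, and Slc7a11 at 0.182 and rank 4819. Nearest to Slc7a11 were Zfp605 (0.0789), Mrpl47 (0.0966), Mtmr10 (0.0984), Thap2 (0.102) and Timeless (0.103), against a median of 0.232. Among the transporters Slc1a4 was the closest to Slc7a11, at 0.144 and rank 266, followed by Slc7a6, at 0.164 and rank 865.

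Wild-type levels in the lines were set side by side without a test, because the tables were normalized separately. In both lines Slc3a2 was the most abundant of the 10 and Slc7a5 the second, and Slc7a6, Slc1a4, Slc7a11 and Slc7a3 were the 4 lowest, in that order. Of the 9 genes above 1 FPKM, 6 were higher in MC38 and 3 in B16-F10 with no overlap of libraries, while among 11857 genes 37.5% were higher in MC38 and 43.3% in B16-F10 in that way. Those higher in MC38 were Slc1a4, at 27.9 ± 0.979 against 14.5 ± 1.44 FPKM, Slc3a2, at 267 ± 7.18 against 159 ± 3.35 FPKM, Slc7a11, Slc7a5, Slc7a6 and Slc1a5 (SD, n = 4 and 4). Ratios of MC38 to B16-F10 means ran from 1.93 for Slc1a4 to 1.23 for Slc1a5.

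The genes higher in B16-F10 were the sodium-coupled carriers Slc38a1, at 89.3 ± 8.37 against 54.3 ± 2.11 FPKM, and Slc38a2, at 102 ± 4.73 against 72.9 ± 2.04 FPKM, and the arginine carrier Slc7a1, at 59.2 ± 2.84 against 50.9 ± 2.45 FPKM (SD, n = 4 and 4). Slc38a1 and Slc38a2 thus stood above Slc1a5 in B16-F10, whereas in MC38 Slc1a5 stood above Slc38a1. In B16-F10 wild type Slc7a5, Slc38a2 and Slc38a1 were neighbours with overlapping libraries. The light chains together, 6 genes, came to 0.670 to 0.690 of Slc3a2 in MC38 wild type and 0.795 to 0.930 in B16-F10 wild type. B16-F10 also had Slc7a7 at 3.16 ± 0.470 and Slc7a8 at 1.21 ± 0.172 FPKM (SD, n = 4), light chains that were near or at 0 in MC38.

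**Figure D5:**
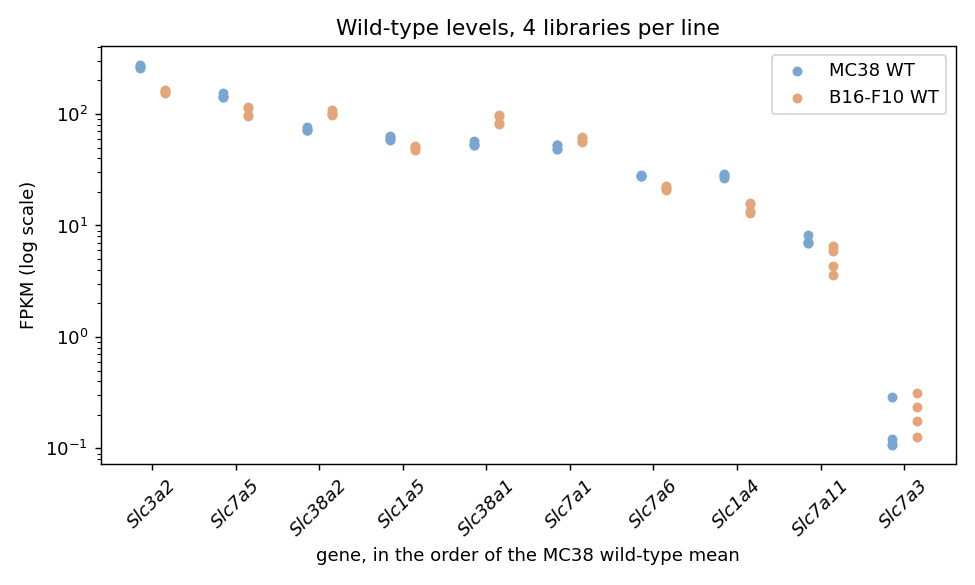
FPKM on a log scale (vertical axis) of the 10 transporter genes in the 4 wild-type libraries of MC38 and of B16-F10, ordered by the MC38 mean. Slc3a2 is highest in both lines, at means of 267 and 159 FPKM, Slc38a1, Slc38a2 and Slc7a1 are higher in B16-F10, and Slc7a3 is below 0.4 FPKM in all of these libraries.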

How the data were processed

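Polyadenylated RNA was sequenced from stranded libraries, per the labels' protocols. The authors deposited FPKM per gene symbol in 1 table for each line, and the submitters' processing notes name GRCm39 and DESeq2. The sources used here name no aligner, counter or annotation. Columns sum to 482580 to 511160, which differ between libraries, and each of the 15 columns was matched to its sample by library name.

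Genes with a mean of at least 1 FPKM in a line entered limma 3.58.1 (mean-variance trend, R 4.3.3) on the scale log2(FPKM + 1), each line alone, with Benjamini-Hochberg adjustment over all tested genes at 0.05. Fold changes on this scale understate those of low genes. The fit was also run on simulated data with independent libraries and changes of 2-fold and 1.5-fold. Of the 1.5-fold changes 93% (MC38) and 88% (B16-F10) were recovered, and 5.88% and 5.67% of calls were false. Smaller changes, such as the MC38 falls other than that of Slc1a5, were not simulated, nor were the pairs of B16-F10 control libraries. Depth came from low values of single-transcript genes of GENCODE M21, of which 83.5 to 87.3% lay within 0.1 of a whole number. Counts were not recovered for all genes, so no count model was used. Replicate pairs had a chi-square of 5.94 to 31.9 per degree of freedom, above sampling noise, and all were counted. In MC38 wild type it was 31.9 for libraries 2 and 3, the highest of all, and 13.0 to 15.1 for the other pairs. In B16-F10 wild type it was 6.93 for libraries 1 and 2, 7.02 for libraries 3 and 4, and 30.5 to 31.3 across these pairs. The fit took all libraries as independent, so B16-F10 intervals may be too narrow. No exon of the 10 genes overlaps another gene in GENCODE M21. 1 list gene was matched by a synonym (Pycr3) and 1 (Kics2) was unmatched.

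The transporters and gene lists were chosen with earlier results of these data known. Besides the transporters, the text names per list up to 2 highest and 2 lowest called genes, or the 2 most abundant where none was called, and the 5 genes nearest in pattern to Slc3a2 and Slc7a11. Further light chains and marker genes were named for description. No protein sequences were used here. Alternatives are given in the closing section.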

Additional observations from a re-analysis of the deposited data

Results flagged for a closer look

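Of 42 groups of 4 libraries examined, 5 held a library far from the other 3 by Dixon's ratio, the gap to the nearest library divided by the group's range, and chance gives about 1 such group in 20. In MC38 wild type, library 1 was high for Slc7a11 (8.25 against 6.90 to 7.09 FPKM, 0.856), for Slc7a6 (28.5 against 27.7 to 27.8 FPKM, 0.841) and for the ratio of Slc7a11 to Slc3a2 (0.0316 against 0.0255 to 0.0263, 0.864). Library 2 was high for Slc7a3 (0.292 against 0.108 to 0.122 FPKM, 0.924). In B16-F10 knockout library 4 the ratio of Slc7a11 to Slc3a2 was high (0.0387 against 0.0296 to 0.0299, 0.966).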

How the results depend on the processing

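The 9 falls in MC38 kept their direction under each alternative run, namely a pseudocount of 0.1, filters at 0.1 and 5 FPKM or none, common totals, median-of-ratios factors, robust and weighted fits, the replicate block and each library left out. Only Slc7a11 and Slc38a2 lost a call, as given above. In B16-F10 0 transporters passed under these alternatives. Near-zero values changed sign there: Slc7a11 was 0.0027 with common totals, 0.014 with library weights and -0.14 to 0.10 with libraries left out. Slc38a1 was -0.019 with median-of-ratios factors, -0.044 with weights and -0.043 to 0.048 with libraries left out. Lamtor1 was 0.011 with common totals and -0.072 to 0.066 with libraries left out. The cause was not tested. All B16-F10 calls numbered 243, against 776 with weights, 140 with a filter at 0.1 FPKM and 73 with none. Wild-type ratios of B16-F10 to MC38 were 0.570 (Slc3a2) and 0.745 (Slc7a6) with median-of-ratios factors.

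Replicate numbers did not pair libraries: same-numbered libraries correlated at -0.288 to -0.0664 in MC38 and -0.298 to 0.165 in B16-F10, and none correlated best with its own number. With the replicate block, calls over all genes went from 5107 to 3902 in MC38 and from 243 to 12 in B16-F10. Slc38a2 then missed the threshold (limma, adjusted p = 0.0656), as did Bach1 in MC38 (0.0721) and Nupr1 (0.0756), Cebpg (0.180), Hmox1 (0.0658) and Gsr (0.155) in B16-F10. Depth limits Slc7a3 most, at under 0.4 FPKM in all libraries.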

Other observations

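Of the 5 list genes called in B16-F10, 2 were also called in MC38, with the opposite sign, where 23.6% of all tested MC38 genes were called lower and 23.9% higher. Cebpg, a C/EBP family partner of ATF4, rose in B16-F10 knockout cells and fell in MC38 overexpressing cells, from 32.8 ± 1.14 to 26.7 ± 0.495 FPKM (SD, n = 4 and 3), a log2 fold change of -0.29 (limma, adjusted p = 2.03e-04) that passed with any 1 MC38 library left out. The B16-F10 rise of Cebpg (0.24, adjusted p = 0.0495) was lost whichever B16-F10 library was left out. Haem oxygenase Hmox1 fell in B16-F10 knockout cells and rose in MC38, from 45.3 ± 1.94 to 50.5 ± 1.76 FPKM, a log2 fold change of 0.15 (limma, adjusted p = 0.0133). This rise was lost when overexpressing library 1 was left out (adjusted p = 0.0599). Nupr1, the other amino acid response gene that rose in B16-F10, stood at 54.3 ± 2.02 and 53.6 ± 0.932 FPKM in MC38 and was not called (adjusted p = 0.745). Gsr and Ass1, which fell in B16-F10, were also lower in MC38 by their means: Gsr stood at 36.1 ± 0.710 and 34.3 ± 0.665 FPKM, with the groups apart but no call (adjusted p = 0.110), and Ass1 at 0.501 ± 0.143 and 0.331 ± 0.0885 FPKM, below the level tested. The difference between the lines was not tested.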
